A study of Drosophila melanogaster with 6 samples.

Results

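The genes described here encode 10 enzymes of glycolysis and lactate formation in Drosophila, in the order of the pathway Hex-A, Pgi, Pfk, Ald, Tpi, Gapdh1, Pgk, Eno, PyK and ImpL3. They were picked by their annotated CG numbers and not by any measured value, though with earlier results of these data known. They are 10 of the 14012 genes in the expression table and 27 of its 21081 transcripts. RNA-seq was performed on S2-DRSC cells, a line grown from late Drosophila embryos, at passages 10 to 15. PARP1 KD cells received double-stranded RNA (dsRNA) against PARP1, the enzyme that builds poly(ADP-ribose) chains on proteins (PARylation). One PARP1 KD library is labelled 100 and the other 500, and the labels give this amount in ng in one place and in µg in another. PJ34 cells received the PARP inhibitor PJ34 at 10 µM in one library and at 0.3 µM in the other. Control cells received neither treatment, and libraries from cells given a non-targeting dsRNA were not analysed here, so a response to dsRNA as such and a response to less PARP1 cannot be told apart. Each of the 3 groups held 2 libraries, and the data files do not say which treated library had which dose, so the libraries are called 1 and 2 and doses are not compared. The spread within a treated group therefore holds a difference in dose beside that between cultures, and p-values measure differences against the spread between these libraries. The comparisons address how RNA levels depend on the PARP1 protein and on its PARylation activity.

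Glycolysis splits glucose into pyruvate and captures part of the energy as ATP. Its upper reactions prime and cleave the sugar, its lower reactions make ATP and NADH, and lactate dehydrogenase turns NADH back into the NAD+ that the pathway needs. NAD+ is also the substrate from which PARP enzymes build poly(ADP-ribose). In Drosophila, glycolytic genes are known to be switched on together in embryos by the nuclear receptor ERR, and S2 cells are proliferating, hemocyte-like cells.

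Levels are given in FPKM, sequenced fragments scaled to transcript length and to library depth, summed over the transcripts of a gene. FPKM are shares of a library, and in bulk RNA fewer cells of a type and less RNA per cell cannot be told apart. The low values of the table correspond to about 24.5 M to 30.8 M fragments per library, an estimate that assumes fragments of 200 bases. On that estimate, ImpL3 in PJ34 library 2 rested on the fewest fragments of any glycolytic gene and library, about 50.5. Of 8 hemocyte markers, 5 to 8 reached 1 FPKM in each library, but their summed level was 1297 and 1125 FPKM in PARP1 KD, 710 and 123 FPKM in PJ34, and 1113 and 1380 FPKM in control libraries, and the larval hemocyte genes Hml and NimC1 stayed at or below 1.55 and 2.24 FPKM. The control libraries were also unlike each other in some of these genes, Pxn having 4.09 FPKM in control library 1 and 102 FPKM in control library 2. Of 9 markers of neurons, glia, muscle, fat body and gonad, only the neuronal gene elav passed 1 FPKM, at up to 3.79 FPKM in control library 1, the summed level was 0.535 to 0.583 FPKM in PARP1 KD, 1.11 to 3.50 FPKM in PJ34 and 1.07 to 4.05 FPKM in control libraries, and the ovarian marker tj was listed at 0 in all 6. Parp1, the targeted gene, had 16.7 and 10.2 FPKM in PARP1 KD, 39.3 and 50.2 FPKM in PJ34, and 51.6 and 29.9 FPKM in control libraries. PJ34 library 2 stood apart: 4475 genes were listed at 0 there, against 3521 to 3773 in the other libraries, and the glycolytic genes took 0.0323% of its total FPKM. Their share was 0.135% and 0.121% in PARP1 KD libraries, 0.0959% in PJ34 library 1, and 0.227% and 0.179% in control libraries. The results of the pathway and of its neighbours are therefore also given without PJ34 library 2.

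**Figure D1:**
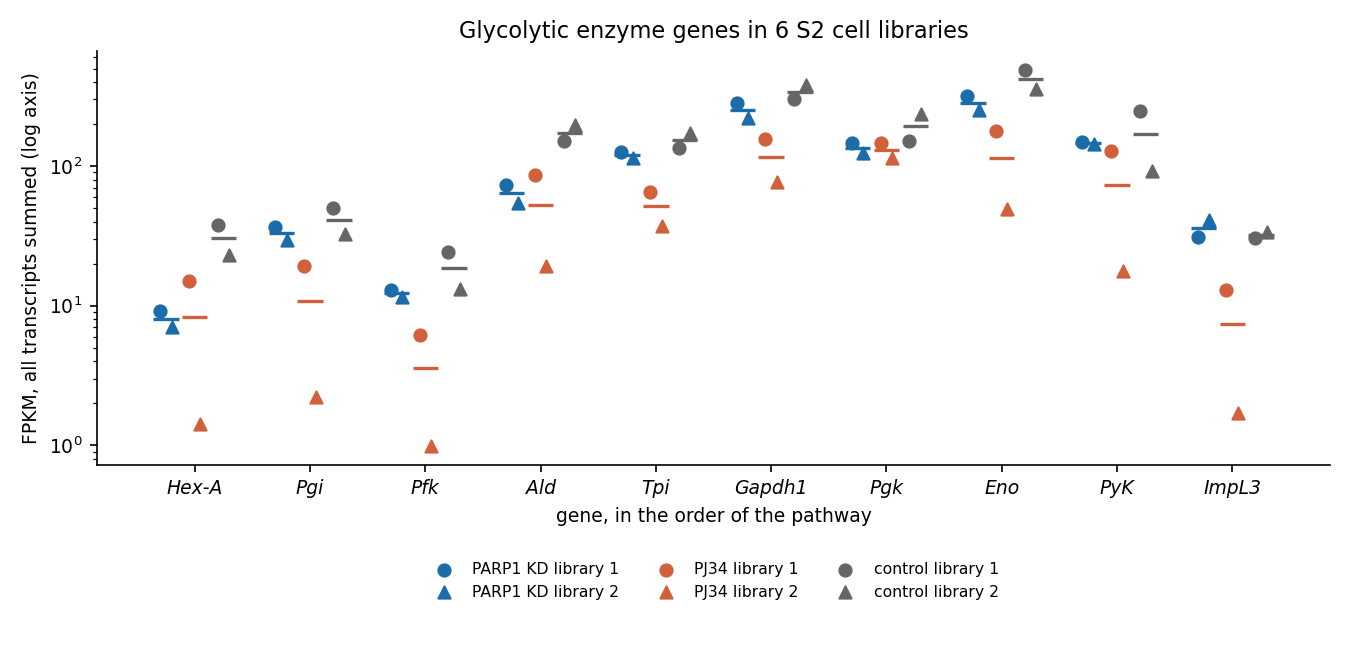
FPKM of the 10 glycolytic enzyme genes in each library on a log axis, in the order of the pathway; circles are library 1, triangles library 2 and the short bars the mean of the 2 libraries of a group. PJ34 library 2 is the lowest of the 6 libraries for every gene, at 0.993 FPKM for Pfk and 114 FPKM for Pgk.

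In control cells, Eno and Gapdh1 of the lower reactions were the most abundant per length. Eno (424 ± 95.6 FPKM) and Gapdh1 (342 ± 52.7 FPKM) led, followed by Pgk (194 ± 59.9 FPKM), Ald (174 ± 31.5 FPKM), PyK (169.9 ± 109 FPKM) and Tpi (155 ± 26.8 FPKM; mean ± SD, n = 2 libraries each). Far below them were Pgi (41.3 ± 12.3 FPKM), ImpL3 (32.2 ± 2.11 FPKM), Hex-A (30.5 ± 10.6 FPKM) and Pfk (18.7 ± 7.79 FPKM). The 2 control libraries of neighbours in this order overlapped, apart from Gapdh1 over Pgk and Tpi over Pgi: the lower control library of Tpi was at 136 FPKM and the higher one of Pgi at 50.0 FPKM. Among the 7308 tested genes, those with a mean of at least 1 FPKM, the glycolytic genes ranked from percentile 53.8 (Pfk) to percentile 97.6 (Eno) in control library 1. In PJ34 library 2 they ranged from percentile 18.2 (Pfk) to percentile 91.9 (Pgk).

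The priming reactions of the pathway are carried out by Hex-A, Pgi and Pfk. Hex-A (CG3001), which phosphorylates glucose, lies on chromosome X from 9479918 to 9482437 (genome build dm3) and has 1 annotated transcript in the table. Its level was 9.13 and 6.99 FPKM in PARP1 KD, 15.1 and 1.42 FPKM in PJ34, and 38.0 and 23.0 FPKM in control libraries. All 4 treated libraries lay below both control libraries, and the 2 PARP1 KD libraries lay between the 2 PJ34 libraries. Pgi (CG8251), the isomerase that converts glucose phosphate to fructose phosphate, lies on 2R from 4798407 to 4801631. It measured 36.4 and 29.5 FPKM in PARP1 KD, 19.3 and 2.22 FPKM in PJ34, and 50.0 and 32.6 FPKM in control libraries, so that PARP1 KD and control overlapped while both PJ34 libraries were lower. Pfk (CG4001), phosphofructokinase, the committing and most regulated step, lies on 2R from 5997245 to 6004696. Its values were 12.9 and 11.6 FPKM in PARP1 KD, 6.20 and 0.993 FPKM in PJ34, and 24.2 and 13.1 FPKM in control libraries. For Pfk the 3 groups did not overlap, with PARP1 KD between PJ34 and control.

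Ald and Tpi split the sugar and interconvert its products. Ald (CG6058, current symbol Ald1), the aldolase that cleaves fructose bisphosphate, lies on 3R from 22080404 to 22087313 and had 73.7 and 54.5 FPKM in PARP1 KD, 86.0 and 19.2 FPKM in PJ34, and 152 and 196 FPKM in control libraries. The 4 treated libraries were all below the control libraries, and the 2 treatments overlapped. Tpi (CG2171), the triose phosphate isomerase, lies on 3R from 25958698 to 25960321 and had 126 and 114 FPKM in PARP1 KD, 65.6 and 37.5 FPKM in PJ34, and 136 and 174 FPKM in control libraries. Here the PJ34 libraries were lowest and the PARP1 KD libraries lay just under the lower control library.

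Gapdh1, Pgk, Eno and PyK form the lower, ATP-yielding part. Gapdh1 (CG12055), the NAD+-using glyceraldehyde phosphate dehydrogenase, lies on 2R from 3679403 to 3680885 and had 283 and 221 FPKM in PARP1 KD, 157 and 76.7 FPKM in PJ34, and 305 and 379 FPKM in control libraries, again with no overlap between the 3 groups. Pgk (CG3127), the first ATP-forming kinase of the pathway, lies on 2L from 2746880 to 2748522. It had 147 and 124 FPKM in PARP1 KD, 147 and 114 FPKM in PJ34, and 152 and 237 FPKM in control libraries. Both treatments lay below control for Pgk, but PARP1 KD library 1, PJ34 library 1 and control library 1 were within a few FPKM of each other. Eno (CG17654), enolase, lies on 2L from 1724971 to 1729629 and had 316 and 250.4 FPKM in PARP1 KD, 179 and 49.3 FPKM in PJ34, and 491 and 356 FPKM in control libraries. The groups of Eno were again in the order PJ34, PARP1 KD and control without overlap. PyK (CG7070), pyruvate kinase, which makes pyruvate and ATP, lies on 3R from 18193234 to 18198464. Its 2 control libraries, at 247 and 92.6 FPKM, differed by 2.67 times and enclosed PARP1 KD (149.5 and 144 FPKM) and PJ34 library 1 (128 FPKM), whereas PJ34 library 2 had 17.9 FPKM. The whole gene spans of Gapdh1, Pgk and Eno overlap those of PolZ1, Cwc25 and Rrp40 on the genome, and overlap of exons was not checked. No use of strand in the counting is stated, so reads of such a pair may not be told apart.

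ImpL3 (CG10160, current symbol Ldh), the lactate dehydrogenase, lies on 3L from 6252589 to 6255793 and followed another pattern. It had 31.3 and 40.8 FPKM in PARP1 KD, 13.0 and 1.70 FPKM in PJ34, and 30.7 and 33.7 FPKM in control libraries. It was the only one of the 10 genes whose PARP1 KD mean was above the control mean, and the lower PARP1 KD library lay within the control range.

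PJ34 against control gave the lowest levels of the pathway. The mean under PJ34 was 0.193 times (Pfk) to 0.430 times (PyK) the control mean for 9 genes and 0.673 times for Pgk, which alone was above control (0.59 on the log2 scale) once the libraries were centred on the median of the tested genes. On the log2(FPKM + 1) scale the differences of all 10 were below 0, as were those of 79.9% of all tested genes: -2.43 ± 0.76 for ImpL3, -2.35 ± 0.80 for Pgi, -2.32 ± 0.76 for Pfk, -2.29 ± 0.87 for Hex-A, -2.14 ± 0.57 for Eno, -2.05 ± 0.64 for Ald, -1.63 ± 0.80 for PyK, -1.62 ± 0.46 for Gapdh1, -1.61 ± 0.45 for Tpi and -0.54 ± 0.43 for Pgk (± SE, limma). None of the 10 passed an adjusted p of 0.05 in limma with Benjamini-Hochberg adjustment over all 7308 genes, where 47 genes (0.643%) passed, and the adjusted p of the glycolytic genes ran from 0.110 (Eno) to 0.315 (Pgk). At an unadjusted p under 0.05, 8 of 10 were lower (PyK and Pgk were not), against 25.3% of all tested genes. Both PJ34 libraries lay below both control libraries for 9 of 10 genes, PyK being the exception, against 54.1% of all tested genes. The median difference of the 10 genes was -2.09, and that of all tested genes was -1.08.

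The size of the PJ34 difference depended on PJ34 library 2. PJ34 library 2 had 0.094 times (Hex-A) to 0.774 times (Pgk) the level of PJ34 library 1. As a percentage of the control mean, PJ34 library 1 was between 33.2% (Pfk) and 75.9% (Pgk), and PJ34 library 2 between 4.67% (Hex-A) and 58.7% (Pgk). With PJ34 library 2 left out, the median difference was -1.07 for the glycolytic genes and -0.43 for all genes, none of the 10 passed, and the unadjusted p was under 0.05 for 6 of them. With PJ34 library 1 left out instead, all but Pgk passed, alongside 5106 of the 7308 genes, and without control library 2 Eno alone passed (adjusted p = 0.0407). PJ34 library 2 also had the lowest summed hemocyte markers, 123 FPKM. Col4a1 and vkg, with long transcripts (medians of 6000 and 6376 bases), made up most of that sum in the other libraries. They were lowest in PJ34 library 2, as were srp, Pxn and Hml. The markers He (47.0 FPKM), eater (15.4 FPKM) and NimC1 (0.192 FPKM) were not lowest there, control library 1 having 1.47, 4.74 and 0.0583 FPKM. The part of these markers in the difference was not tested.

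PARP1 KD against control differed less, and mainly in Hex-A and Ald. Relative to the control mean, the PARP1 KD mean was 0.264 times for Hex-A and 0.369 times for Ald, 0.657 to 0.863 times for the 7 genes Pfk, Eno, Pgk, Gapdh1, Tpi, Pgi and PyK, and 1.12 times for ImpL3. The log2 differences were -1.77 ± 0.87 for Hex-A and -1.43 ± 0.64 for Ald, which stood at percentiles 1.11 and 2.98 of the differences of all tested genes. For the other 8 genes they ran from -0.57 ± 0.57 (Eno) to 0.15 ± 0.76 (ImpL3), around the median of all genes of -0.28, and with each library centred on its own median, which put the median of all genes at 0.11, Pgi, Tpi and PyK were above 0 (0.10, 0.04 and 0.35). In all, 9 of 10 were below 0, against 71.9% of all genes. No glycolytic gene passed the adjusted test (adjusted p = 0.9996 for all 10, limma), and neither did any of the 7308 genes (0%), of which 209 had an unadjusted p under 0.05. Ald, with an unadjusted limma p of 0.0481, was the 1 of 10 that was lower at that level, against 2.5% of all genes. The spread in this fit also includes that of the PJ34 libraries. With only the 4 libraries compared, the median difference of the 10 genes stayed at -0.46, and their lowest adjusted p was 0.0665 (limma). In that fit 2 of the 10 were lower at an unadjusted p under 0.05. Of all genes, 950 had such a p in either direction and 23 passed. Both PARP1 KD libraries lay below both control libraries for 7 of 10 genes, all but Pgi, PyK and ImpL3, against 34.9% of all genes. PARP1 KD library 2 had 0.739 times (Ald) to 1.30 times (ImpL3) the level of PARP1 KD library 1.

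PARP1 KD against PJ34 gave differences above 0 for all 10 genes on the log2 scale, 3 of which (Hex-A, Ald and Pgk, at -0.22, -0.13 and -0.69) were below 0 once each library was centred on the median of the tested genes. On the FPKM scale Hex-A averaged 8.06 FPKM in PARP1 KD and 8.26 FPKM in PJ34. The control libraries enter this comparison only through the estimate of the spread. Among all tested genes 27.7% were below 0 in this comparison. The differences were largest for ImpL3 (2.58 ± 0.76), Pgi (2.06 ± 0.80) and Pfk (1.81 ± 0.76), between 1.18 and 1.58 for PyK, Eno, Tpi and Gapdh1, and 0.62 ± 0.64 for Ald, 0.53 ± 0.87 for Hex-A and 0.06 ± 0.43 for Pgk on the log2(FPKM + 1) scale (± SE, limma). The lowest adjusted p, that of ImpL3, was 0.0951, so none of the 10 passed, while 188 of the 7308 genes (2.57%) did. At an unadjusted p under 0.05, 6 of 10 were higher, against 16.4% of all genes, and 7 of 10 were higher in both PARP1 KD libraries than in both PJ34 libraries, against 43.8%. Hex-A, Ald and Pgk were the 3 that overlapped. The median difference was 1.41 for the 10 genes and 0.67 for all genes. Without PJ34 library 2 the median was 0.66 and no gene of the pathway passed, and Hex-A, Ald and Pgk were then lower in PARP1 KD (-0.84, -0.43 and -0.12). Without PJ34 library 1, 9 of 10 passed, as did 4222 of all genes. PARP1 KD against control and PJ34 against control share both control libraries, so the values of those comparisons are not independent of each other.

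**Figure D2:**
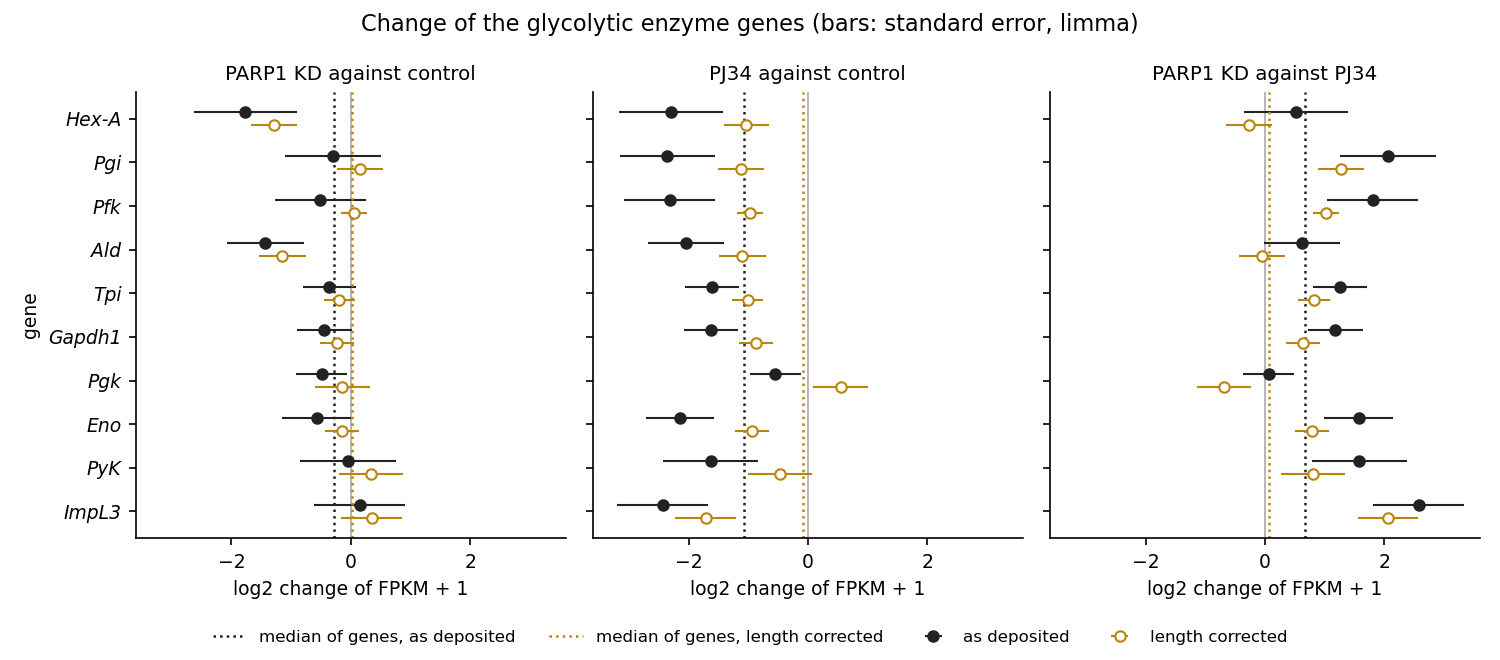
Difference of each glycolytic gene in the 3 comparisons on the log2(FPKM + 1) scale, with standard errors from limma as bars; filled points are from FPKM as deposited, open points after the correction for transcript length, and dotted lines are the medians of all tested genes. In the middle panel the filled points of 9 genes lie left of the dotted line at -1.08 and that of Pgk lies to its right.

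Differences between these libraries went with transcript length. Across 7216 genes with an annotated length, Spearman's rho of length with the log2 difference from control was -0.52 under PARP1 KD and -0.51 under PJ34, and with the difference between PARP1 KD and PJ34 it was 0.24, a description across genes, which are not replicates. The glycolytic genes have median transcript lengths of 1268 bases (Tpi) to 3217 bases (Pfk), and the median of the tested genes is 1870 bases. These medians cover all transcripts of the newer annotation. For Pgk 1865 bases were used, and its 1 transcript in the table has 1486. The transcripts with the highest mean share were also shorter for Eno, Ald, Tpi, Gapdh1 and PyK, and longer for Pgi, Pfk and ImpL3. The fragment estimates use the same medians. When each library was set relative to a smooth trend on length, the median for PJ34 against control was -0.99 for the 10 genes and -0.09 for all genes, 8 of 10 were lower at an unadjusted p under 0.05 against 13.5% of all genes, and none passed the adjusted test, which 3.24% of all genes did. Pgk turned to 0.55 there and the other 9 stayed below 0, against 55.2% of all genes. For PARP1 KD against control the median became -0.14, with -1.29 for Hex-A and -1.15 for Ald, against 0.02 for all genes. For PARP1 KD against PJ34 it became 0.80, against 0.07 for all genes, and Pfk (1.02, adjusted p = 0.0308) and ImpL3 (2.06, adjusted p = 0.0397) passed in limma, while 19% of all genes did. The part of length in these differences was not tested beyond this correction.

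**Figure D3:**
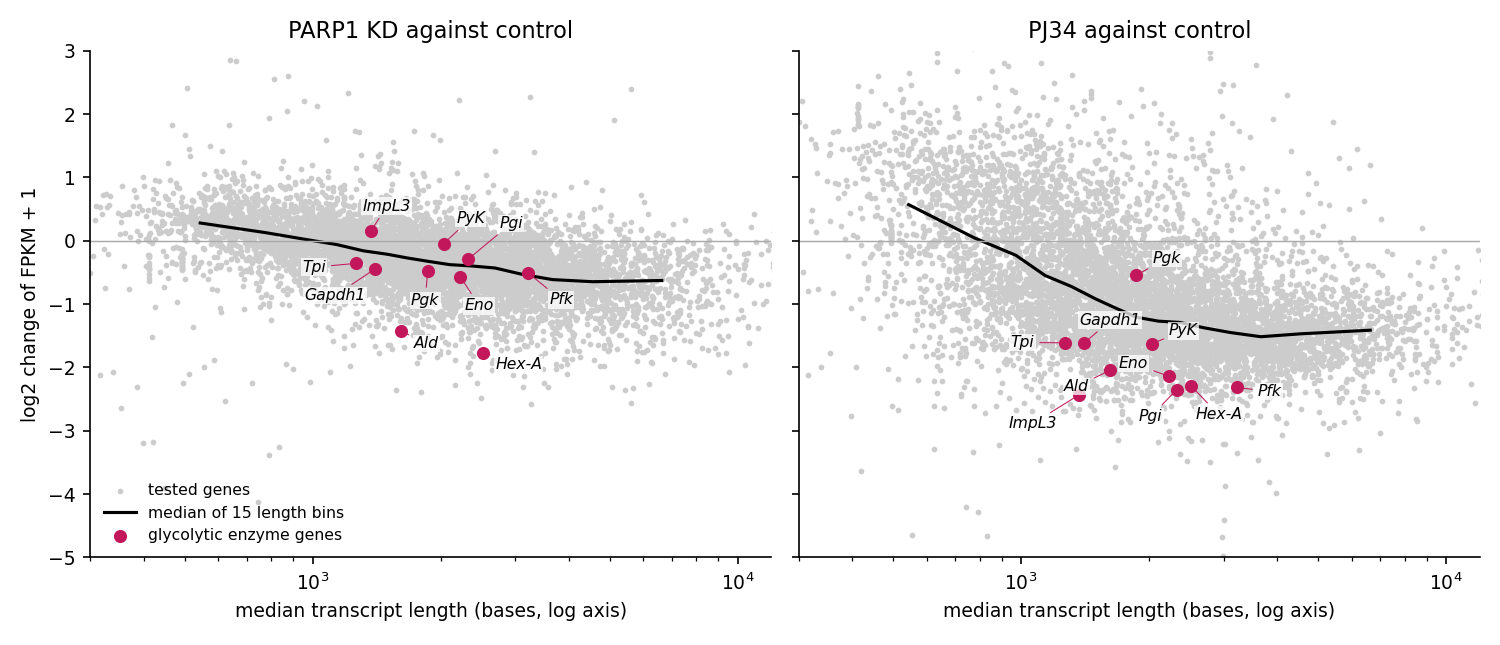
Log2 difference against median transcript length (log axis) for PARP1 KD against control and PJ34 against control; grey points are tested genes, of which 39 and 78 lie outside the axes, the line is the median in 15 bins of length, and red points are the glycolytic genes. Hex-A (-1.77) and Ald (-1.43) lie well under the line at left; at right 9 of the 10 glycolytic genes lie under it and Pgk (-0.54) above it.

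The levels of the glycolytic genes were correlated across libraries, least so for Pgk. Over the 45 pairs of genes, Pearson's r of log2(FPKM + 1) across the 6 libraries ran from 0.32 (Pgk with PyK) to 0.99 (Pfk with Eno), with a median of 0.88, and the 36 pairs without Pgk had an r of at least 0.72. After the length correction the median was 0.59, and the 9 pairs with an r below 0 were the 9 that include Pgk. These correlations are a description: the libraries fall into 3 groups, and all points share the low PJ34 library 2. The 5 tested genes outside the pathway most like the mean of the 10 z-scored genes were CG3662, su(r), CYLD, CG9114 and Mkp3, with r of 0.997 to 0.999. The closest, CG3662, had 106 and 81.0 FPKM in PARP1 KD, 62.4 and 11.7 FPKM in PJ34, and 156 and 165 FPKM in control libraries. The pattern was common in the table, with an r above 0.9 for 2754 genes, or 37.7% of those tested.

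Transcript shares were dominated by 1 transcript for 7 of the genes. Hex-A, Pgk and ImpL3 have 1 transcript each, PyK-RB held 99.1% to 99.8% of the FPKM of PyK, Eno-RA 96.3% to 98.2%, Gapdh1-RB 92.0% to 98.6% and Tpi-RB 88.2% to 95.7%, over all 6 libraries. Pfk-RB held 74.7% and 78.2% in PARP1 KD, 54.7% and 83.3% in PJ34, and 80.4% and 75.1% in control libraries, and Pfk-RC held the remainder in each. The 2 PJ34 libraries of Pfk enclosed the other 4, so that the Pfk-RC difference for PJ34 against control was 8.71 points, 23.0 points without PJ34 library 2 and -5.60 points without PJ34 library 1.

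Ald, the gene with the most transcripts here (6), had 3 that carried most of its FPKM. Ald-RB held 10.7% and 9.09% in PARP1 KD, 53.0% and 51.5% in PJ34, and 34.1% and 21.0% in control libraries. Its share was thus lowest in PARP1 KD and highest in PJ34, with no overlap between the 3 groups. Ald-RC held 65.3% and 69.4% in PARP1 KD, 33.3% and 39.2% in PJ34, and 48.6% and 64.8% in control libraries, the reverse order. Ald-RH held 22.7% and 20.5% in PARP1 KD, 11.4% and 8.25% in PJ34, and 14.4% and 12.9% in control libraries. In limma on the shares of 4536 transcripts, 10 of them from 4 glycolytic genes, the difference of Ald-RB was -17.7 ± 6.74 percentage points for PARP1 KD against control (adjusted p = 0.300), 24.7 ± 6.74 points for PJ34 against control (adjusted p = 0.926) and -42.4 ± 6.74 points for PARP1 KD against PJ34 (adjusted p = 0.0607; ± SE). For Ald-RC the last comparison gave 31.1 ± 7.74 points (adjusted p = 0.0858).

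Pgi-RA held 38.3% and 31.3% of the FPKM of Pgi in PARP1 KD, 100.0% in both PJ34 libraries, and 98.2% and 65.1% in control libraries. Both PARP1 KD libraries were below the other 4. The rest went to Pgi-RC (30.9% and 68.5%) and Pgi-RB (30.8% and 0.19%) in PARP1 KD, so the libraries of that group differed in which of them was high. All 3 Pgi transcripts span the same stretch of the genome, and PJ34 library 2 had 2.22 FPKM of Pgi to divide. The Pgi-RA difference was -46.9 ± 12.2 points for PARP1 KD against control (adjusted p = 0.196, limma), 18.3 ± 12.2 points for PJ34 against control (adjusted p = 0.926) and -65.2 ± 12.2 points for PARP1 KD against PJ34 (adjusted p = 0.0681).

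No transcript of the 10 passed the adjusted test in any of the 3 comparisons, in which 4 of 4536 transcripts (0.0882%), 0 (0%; 214 at an unadjusted p under 0.05) and 4 (0.0882%) passed for PARP1 KD against control, PJ34 against control and PARP1 KD against PJ34. At an unadjusted p under 0.05, limma gave 2, 2 and 4 of the 10 in that order, against 16.6%, 4.72% and 30.9% of all transcripts tested. Groups did not overlap for 7, 5 and 8 of the 10, against 63.4%, 30.2% and 70.3%. Left-out libraries changed some of these calls: with either control library left out Ald-RB, Ald-RC and Pgi-RA passed for PARP1 KD against PJ34 (adjusted p = 0.0169, 0.0329 and 0.0155), as did 958 transcripts of all, and without control library 2 Pgi-RA passed for PARP1 KD against control (-63.4 points, adjusted p = 0.0283), as did 684.

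**Figure D4:**
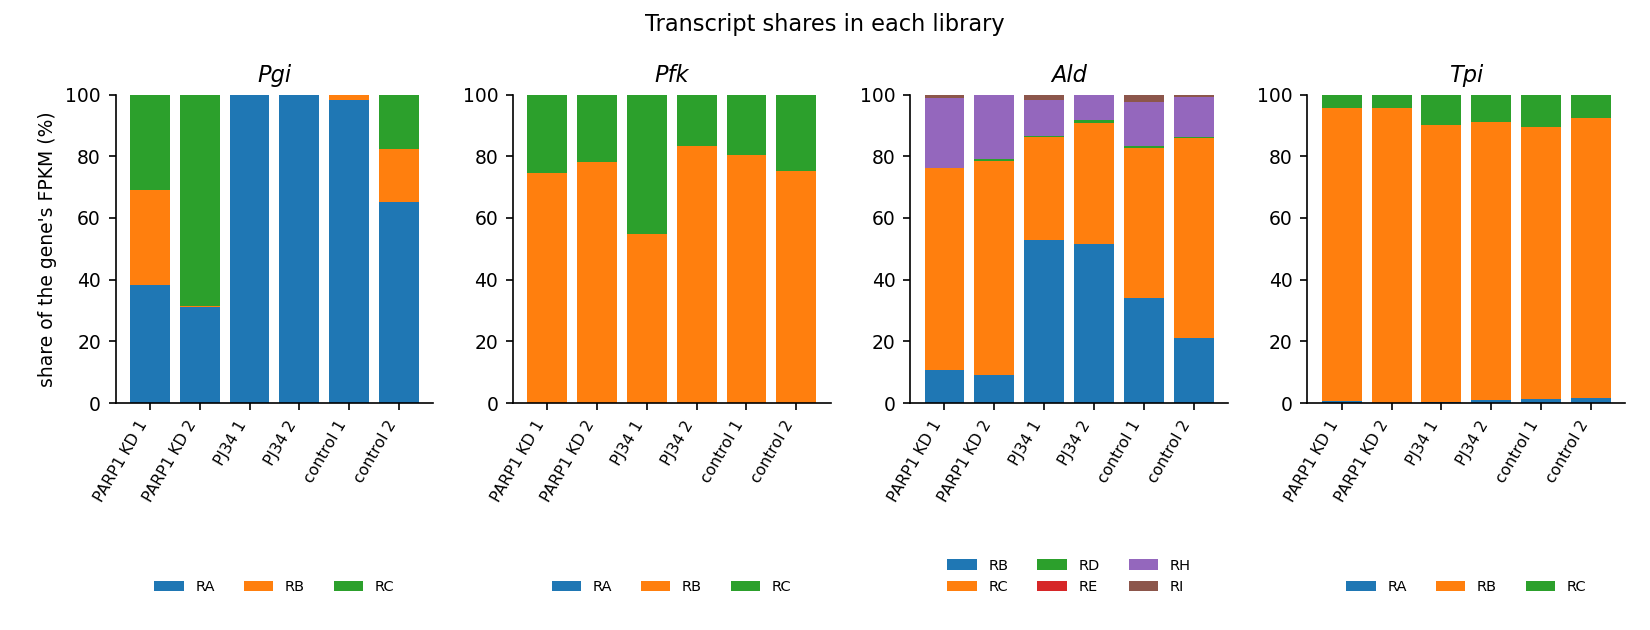
Percent of the FPKM of Pgi, Pfk, Ald and Tpi held by each annotated transcript in each of the 6 libraries, as stacked bars. The share of Ald-RB is 10.7% and 9.09% in PARP1 KD and 53.0% and 51.5% in PJ34, and Pgi-RA makes up the whole bar only under PJ34.

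Of 14 paralogs and remaining pathway enzymes, 3 had a mean of at least 1 FPKM, and 11 stayed under it, at 0.768 FPKM or less. Of these, 4 were listed at 0 in all 6 libraries. Gapdh2, the near-identical copy of Gapdh1 with which it may share reads, had 285 and 199 FPKM in PARP1 KD, 225 and 100.2 FPKM in PJ34, and 324 and 389 FPKM in control libraries. All 4 treated libraries were below control, as for Gapdh1, and the log2 difference was -1.23 for PJ34 against control (adjusted p = 0.153, limma; -0.65 without PJ34 library 2) and -0.58 for PARP1 KD against control. Pglym78, the phosphoglycerate mutase that links Pgk to Eno, had 76.0 and 68.6 FPKM in PARP1 KD, 44.3 and 24.8 FPKM in PJ34, and 90.2 and 108 FPKM in control libraries, the same order as Eno (-1.55 for PJ34 against control, adjusted p = 0.122; -1.14 without PJ34 library 2). CG9961, a paralog of Pgk, was near 1 FPKM everywhere (0.785 to 1.54 FPKM).

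Neighbouring pathways were read from lists of their genes, and with FPKM as deposited no gene of these lists passed the adjusted test in any comparison of the 6 libraries (limma, all tested genes). The list of pyruvate entry and the citric acid cycle was nearest to glycolysis: for PJ34 against control all 21 genes were below 0, 17 at an unadjusted p under 0.05, against 79.9% and 25.3% of all tested genes, with a median of -2.03, against -1.08 for all genes. The median for PARP1 KD against control was -0.26 and no gene reached that level. The control libraries were unlike each other in much of this list. Control library 1 was the higher for every gene but Scsalpha1, Fum1 and Mdh1. Acon, for example, had 148 and 32.9 FPKM in control libraries 1 and 2, kdn 137 and 31.1 FPKM, and Mdh2 176 and 80.8 FPKM. Without PJ34 library 2, a choice made for these lists after seeing the data, the PJ34 median was -0.92 against -0.43 for all genes, and 20 of the 21 genes were below 0, 7 at an unadjusted p under 0.05. Pdha, a subunit of pyruvate dehydrogenase, had 118 and 90.2 FPKM in PARP1 KD, 43.9 and 11.1 FPKM in PJ34, and 121 and 86.6 FPKM in control libraries. Its PARP1 KD and control libraries overlapped and PJ34 was lower (-2.15, adjusted p = 0.116; -1.20 without PJ34 library 2), and Mdh2, mitochondrial malate dehydrogenase, gave the smallest unadjusted p of the list for PARP1 KD against PJ34 (2.55, adjusted p = 0.087; 1.36 without PJ34 library 2). ScsbetaA, a succinyl-CoA synthetase subunit, had the smallest unadjusted p between PARP1 KD and control (-1.32, adjusted p = 0.9996). After the length correction 3 of the 21 genes were higher in PARP1 KD than in PJ34 at an adjusted p under 0.05, against 19% of all genes passing in either direction. In that setting 2 of 7 tested genes of sugar uptake and storage were higher and 1 was lower. Of gluconeogenesis and flux control, 1 of 4 was lower. Higher were 1 of 7 pentose phosphate genes and 1 of 2 of the glycerol phosphate shuttle, and 0 of 9 listed transcription factors passed.

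In sugar uptake and storage, 7 of 10 genes were tested, with medians of -0.72 for PARP1 KD and -1.68 for PJ34 against control, 1 and 6 of them lower at an unadjusted p under 0.05, against 2.5% and 25.3% of all tested genes, whose medians were -0.28 and -1.08. Without PJ34 library 2 the PJ34 median was -0.81, with 2 genes lower at that level. GlyP, the glycogen phosphorylase, had 34.3 and 32.1 FPKM in PARP1 KD, 14.0 and 1.45 FPKM in PJ34, and 103 and 29.4 FPKM in control libraries (-3.21 for PJ34 against control, adjusted p = 0.110, limma, and -1.91 without PJ34 library 2). Its control libraries differed by more than those of any glycolytic gene. The trehalose transporter Tret1-1 had -1.33 for PARP1 KD against control (adjusted p = 0.9996), and UGP, which makes the sugar donor for glycogen, had 1.87 for PARP1 KD against PJ34 (adjusted p = 0.104; 1.27 without PJ34 library 2). Gluconeogenesis and flux control had 4 of 5 genes tested, with medians of -0.96 for PARP1 KD and -1.39 for PJ34 against control (-0.86 without PJ34 library 2). Pepck, the gluconeogenic phosphoenolpyruvate carboxykinase, had 2.84 and 2.69 FPKM in PARP1 KD, 32.7 and 4.38 FPKM in PJ34, and 16.7 and 24.0 FPKM in control libraries. Both PARP1 KD libraries were below the other 4, with a difference of -2.48 from control (adjusted p = 0.9996, limma). Without PJ34 library 2 that difference passed (adjusted p = 0.0180), as did 23 of the 7308 genes, and so did the one from PJ34 (-3.16, adjusted p = 0.00102), with 440 genes passing. Pdk, the kinase that inhibits pyruvate dehydrogenase, gave -1.64 for PJ34 against control (adjusted p = 0.158), or -0.90 without PJ34 library 2.

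Among the 7 pentose phosphate genes the medians were -0.21 for PARP1 KD and -0.86 for PJ34 against control. Both were above the medians of all genes, -0.28 and -1.08. Without PJ34 library 2 the PJ34 median was -0.36, against -0.43 for all genes. After the length correction the PJ34 median was -0.32, below that of all genes (-0.09). The PARP1 KD median was then 0.13, against 0.02 for all genes. CG8036, a transketolase, had -2.31 for PJ34 against control (adjusted p = 0.139; -0.91 without PJ34 library 2) and -0.83 for PARP1 KD against control, and Rpi, the ribose phosphate isomerase, had 1.47 for PARP1 KD against PJ34 (adjusted p = 0.121; 1.03 without PJ34 library 2). In the glycerol phosphate shuttle, which reoxidises NADH beside lactate dehydrogenase and of which 2 of 3 genes were tested, Gpdh had 74.8 and 53.0 FPKM in PARP1 KD, 18.9 and 10.3 FPKM in PJ34, and 71.6 and 62.0 FPKM in control libraries. Like ImpL3, it was lower in PJ34 and overlapped between PARP1 KD and control, with -2.17 for PJ34 against control (adjusted p = 0.0894) and 2.09 for PARP1 KD against PJ34 (adjusted p = 0.0622). Both passed in limma without PJ34 library 2 (-1.77, adjusted p = 0.0334, and 1.69, adjusted p = 0.0304), as did 236 and 440 of the 7308 genes. Its partner Gpo-1, the mitochondrial glycerol phosphate oxidase, was unlike in the 2 control libraries (64.0 and 10.6 FPKM), which enclosed the other 4.

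The 9 genes of the list of transcription factors linked to glycolysis, which also holds the hydroxylase Hph, were all expressed. ERR, taken up here after its values were seen because of its known role, had 10.2 and 10.1 FPKM in PARP1 KD, 6.36 and 1.46 FPKM in PJ34, and 11.2 and 10.5 FPKM in control libraries. Both PJ34 libraries were the lowest for ERR and the other 4 lay close together; the difference for PJ34 against control was -1.48, or -0.69 without PJ34 library 2. Hph, the prolyl hydroxylase that marks the hypoxia factor Sima for destruction, had 31.7 and 23.2 FPKM in PARP1 KD, 14.3 and 4.31 FPKM in PJ34, and 35.7 and 62.2 FPKM in control libraries (-2.42 for PJ34 against control, adjusted p = 0.110, or -1.65 without PJ34 library 2; 1.64 for PARP1 KD against PJ34, adjusted p = 0.173). The stress factor crc, the fly homolog of ATF4, had the smallest unadjusted p of the list between PARP1 KD and control (-0.83, adjusted p = 0.9996). The median of the list was -0.42 under PARP1 KD and -1.48 under PJ34, both against control, where all genes had -0.28 and -1.08. Without PJ34 library 2 the PJ34 median was -0.66, against -0.43 for all genes. After the length correction the medians under PARP1 KD and PJ34 were 0.04 and -0.28, against 0.02 and -0.09 for all genes.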

How the data were processed

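RNA-seq of 6 S2-DRSC libraries was analysed from the FPKM values that the authors deposited, with transcripts in rows and libraries in columns. Per the labels' processing notes and the study's methods, the authors processed reads with CASAVA, aligned them to genome build dm3 with TopHat2 2.0.10 and Bowtie2 2.1.0.0, and estimated FPKM with Cufflinks 2.1.1 and Cuffdiff under a FlyBase annotation. FPKM are scaled to each library's total, so a gene can differ because others do, and Cufflinks splits shared reads between transcripts by estimation. No column of sample values was left unused. Control columns were matched to their samples, and PARP1 KD and PJ34 columns only to their group.

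Transcripts were summed per gene. The 7308 of 14012 genes that averaged 1 FPKM or more were tested on log2(FPKM + 1) with limma 3.58.1 in R 4.3.3, all 6 libraries in one fit without covariates, empirical Bayes with trend, Benjamini-Hochberg adjustment and a threshold of 0.05. Because a pseudocount of 1 is added, differences of low genes are understated. Transcript shares, in percent of the gene's FPKM, were tested likewise without trend for 4536 transcripts with a mean share of 5 to 95% in genes above 0 in every library. On simulated data the gene fit (7308 genes) recovered none of 200 genes changed by 2 on the log2 scale, 72.5% of those changed by 4 and 91.5% of those changed by 6. The share fit (4536 transcripts) recovered none of 200 transcripts at 20 or 40 points and 61% at 80. The simulated noise of the gene fit was independent between genes, and only the 200 genes were changed. In the data 79.9% of tested genes were below 0 for PJ34 against control, so these rates may not hold for the comparisons made here.

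Symbols matched 13531 of the 14012 genes, and lengths (98.7% of tested genes) came from the Ensembl BDGP6 annotation, used for lengths and names only. Coordinates are those of the deposited table in dm3, with 1 added to the start. Depth was estimated from the smallest step between low FPKM values. Alternatives were other pseudocounts (0.1 and 5), quantile normalization, centring on the median, a length correction (lowess, span 0.3), other filters, 4-library fits, no trend, transcript rows, leaving out each library and, added after seeing the data, a block on the column numbers. Named genes were the 10 enzymes, Parp1, paralogs with a mean of at least 1 FPKM, in each other list the gene with the smallest unadjusted p per comparison, and the 5 genes most like the pathway's mean profile. The members and lists were chosen with earlier results of these data known. Python 3.11.15 with pandas 2.3.3 was used for tables. Sequences are not shown here.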

Additional observations from a re-analysis of the deposited data

How the results depend on the processing

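The treated columns of the table carry the numbers 1 and 2, but the labels number every treated sample 1 and nothing ties the column numbers to a dose, culture or day. For lack of such a tie, the numbers were not taken to pair the libraries in the main fit. Deviations of same-numbered libraries from their group means correlated across 7308 genes at 0.54 for PJ34 with control. The correlation was 0.088 for PARP1 KD with PJ34 and 0.082 for PARP1 KD with control. Whether same-numbered PJ34 and control libraries share a factor was not tested. With a replicate block on these numbers, added after seeing the data, 0, 9 and 5 of the 10 genes passed for PARP1 KD against control, PJ34 against control and PARP1 KD against PJ34, as did 67, 3158 and 1730 of all genes, and 0 transcript shares passed in each (931, 195 and 1508 of 4536 at an unadjusted p under 0.05, limma). With a main count of 0 in every comparison, the number of the 10 genes past the threshold ran from 0 to 9 over left-out libraries for PJ34 against control (9 without PJ34 library 1, 1 without control library 2) and for PARP1 KD against PJ34 (9 without PJ34 library 1), was 2 for PARP1 KD against PJ34 after the length correction, and was 0 for PARP1 KD against control under every alternative run, the block included. The number of their transcripts past the threshold ran from 0 to 1 for PARP1 KD against control and from 0 to 3 for PARP1 KD against PJ34, where fitting only the 4 libraries compared also gave 3. With 1 library left in a group, it is assumed to vary like the others. Signs that turned, on the log2 scale, were as follows. For PARP1 KD against control, Pgi gave 0.10 (median centring), 0.15 (length correction) and -0.59 to 0.0096 over left-out libraries (highest without control library 1), Pfk 0.056 (length correction), Tpi 0.036 (median centring), PyK 0.10 (quantile normalization), 0.35 (median centring), 0.34 (length correction) and -0.75 to 0.66 over left-out libraries (highest without control library 1), and ImpL3 -0.038 (without PARP1 KD library 2) to 0.33. For PJ34 against control, Pgk gave 0.59 (median centring) and 0.55 (length correction). For PARP1 KD against PJ34, Hex-A gave -0.22 (quantile normalization), -0.22 (median centring), -0.26 (length correction) and -0.84 (without PJ34 library 2) to 1.89, Ald -0.13 (median centring), -0.049 (length correction) and -0.43 (without PJ34 library 2) to 1.67, and Pgk -0.69 (median centring), -0.69 (length correction), -0.06 (without PARP1 KD library 1) and -0.12 (without PJ34 library 2) to 0.24, the higher ends coming from leaving out PJ34 library 1. Shares turned only over left-out libraries, in points. Between PARP1 KD and control, Pfk-RC ran from -1.33 (without control library 1) to 3.94, Pfk-RB from -3.94 to 1.33 (without control library 1) and Pgi-RB from -9.31 (without PARP1 KD library 1) to 21.3. Between PJ34 and control, Pfk-RC ran from -5.60 (without PJ34 library 1) to 23.0, Pfk-RB from -23.0 to 5.60 (without PJ34 library 1), Tpi-RB from -0.89 (without control library 1) to 1.64, Tpi-RC from -0.94 (without control library 2) to 1.76 and Pgi-RC from -17.7 to 0.0041 (without control library 2). Between PARP1 KD and PJ34, Pfk-RC ran from -21.7 to 6.90 (without PJ34 library 1) and Pfk-RB from -6.90 (without PJ34 library 1) to 21.7. The cause of these turns was not tested.

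Counts over all genes moved more. For PJ34 against control, 47 genes passed, against 27 (pseudocount 0.1), 76 (pseudocount 5), 164 (quantile normalization), 234 (length correction), 7 (all genes above 0), 15 (4 libraries), 28 (no trend), 5 (transcript rows) and 9 to 5106 over left-out libraries. For PARP1 KD against PJ34, 188 passed, against 69, 284 and 555 (pseudocounts 0.1 and 5 and quantile normalization), 117 (median centring, and also with a mean of at least 5 FPKM), 1373 (length correction), 6 (all genes above 0), 457 (4 libraries), 56 (no trend) and 1 to 4222 over left-out libraries. For PARP1 KD against control, 0 passed, against 23 (4 libraries), 15 (transcript rows) and 0 to 72 over left-out libraries. Of the shares, 4 transcripts passed for PARP1 KD against control and 4 for PARP1 KD against PJ34, against 0 and 2 (mean of at least 5 FPKM), 0 and 958 (4 libraries), 0 and 1 (arcsine scale), and 8 and 46 (mean share of 1 to 99%) or 0 and 0 (trend), both chosen after seeing the data. Depth limits the low values: the glycolytic genes rested on an estimated 50.5 to 27754 fragments.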
